A study of Mus musculus with 2 samples.

Results

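AP-1 and EGR transcription factors were followed through RNA of the library labelled Lig4-/- and of the CH12F3 library. The 10 genes were taken by symbol, namely Fos, Fosb and Fosl2 of the FOS family, Jun, Junb and Jund of the JUN family, Batf, and Egr1, Egr2 and Egr3, and all 10 were found among 51840 genes of the deposited table. CH12F3 is a mouse B cell lymphoma line used to study immunoglobulin class switching, and the compared cells are CH12F3 cells labelled Lig4-/-, that is, without DNA ligase IV, the ligase that seals ends in nonhomologous end joining. Both cultures were grown in RPMI 1640 with 10% serum, and the labels name no stimulus, passage or clone. Each line gave 1 library, so there is no spread between replicates, no test and no p-value, and each difference given here describes these 2 libraries alone.

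AP-1 is a family of dimers of basic leucine zipper proteins. FOS proteins cannot pair with each other and bind DNA with a JUN partner, whereas JUN proteins can also pair among themselves, and BATF lacks a transactivation domain of its own and binds with JUN proteins and with IRF4 or IRF8 at composite sites. EGR proteins bind GC-rich sites through zinc fingers and are held in check by the NAB corepressors. Fos, Fosb, Jun, Junb and the EGR genes are immediate early genes: ERK, JNK and p38 kinases act on them through SRF, ternary complex factors and other bound factors within minutes of a signal such as engagement of the B cell receptor, and their mRNAs decay quickly. In activated B cells BATF is needed for class switching.

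Values are FPKM, fragment numbers scaled to transcript length and library size, so that levels of different genes can be set beside each other. The log2 ratio is that of FPKM + 1 in the library labelled Lig4-/- over FPKM + 1 in the CH12F3 library, and the added 1 understates differences of low genes. Of the 10 genes, 7 had a mean of at least 1 FPKM and are called expressed here, as were 11437 genes in all. Fosb, Egr2 and Egr3 lay below that mean. The sources used here do not give read depth, so no value carries a counting interval, and values near or below 1 FPKM are the least certain. Lig4 itself was listed at 0.64 FPKM in the library labelled Lig4-/- and at 0.13 FPKM in the CH12F3 library. Its log2 ratio was 0.54, and -0.57 after the GC adjustment described below. At such low values the targeted gene neither bears out nor contradicts the label, and directions rest on the label. All 9 B cell markers had at least 3.28 FPKM in both libraries, but not at like levels. Cd79a, Ms4a1 and Ebf1 were past 2-fold on the higher side in the library labelled Lig4-/- (log2 ratios 1.29, 2.47 and 1.15). Cd79b was past 2-fold on the lower side, at 481 FPKM in the library labelled Lig4-/- and 1187 FPKM in CH12F3 (log2 ratio -1.30). The rest lay within 2-fold. After the GC adjustment described below, Ebf1 alone of these genes past 2-fold came within it, at 0.16. Markers of other cells were low: the 6 T cell markers summed to 7.49 FPKM in the library labelled Lig4-/- and 10.5 FPKM in the CH12F3 library, the 5 myeloid markers to 8.70 FPKM in the library labelled Lig4-/- and 3.61 FPKM in CH12F3, and the 5 fibroblast markers to 0.14 FPKM in the library labelled Lig4-/- and 0.31 FPKM in CH12F3, with Cd14, Elane, Dcn, Pdgfra and Col3a1 at 0 in both. Of the T cell markers, Cd4 was at 2.64 FPKM in the library labelled Lig4-/- and 7.42 FPKM in CH12F3, where it was above Pax5 and Ms4a1. The 4 plasma cell markers summed to 893 FPKM in the library labelled Lig4-/- and 279 FPKM in the CH12F3 library. Jchain, at 722 FPKM in the library labelled Lig4-/- and 78.9 FPKM in CH12F3, carried this difference. Prdm1 was also higher, at 21.2 FPKM in the library labelled Lig4-/- and 7.08 FPKM in CH12F3, whereas Xbp1 was lower, at 150 FPKM in the library labelled Lig4-/- and 193 FPKM in CH12F3, and Sdc1 was at 0.02 FPKM in the library labelled Lig4-/- and 0.09 FPKM in CH12F3. Their part in the values below was not tested. Of the erythroid markers, Hba-a1 and Hba-a2 together were at 49.9 FPKM in the library labelled Lig4-/- and 72.5 FPKM in CH12F3, while Hbb-bs was at 0 in both. In bulk RNA, fewer cells with a transcript and less of it per cell cannot be told apart.

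The promoters of 4 genes are shown first, because they belong to a pair of genes that differ widely in level within a family and a pair that does so within a locus. Jun and Junb are close relatives, yet Junb was 33.1 times the level of Jun in the library labelled Lig4-/- and 44.2 times in CH12F3. Fos and Batf lie 209396 bases apart on chromosome 12, yet Batf was 117 times the level of Fos in the library labelled Lig4-/- and 144 times in CH12F3. The sequences are those of RefSeq on GRCm38.p6, written 5′ to 3′ on the strand of the gene and ending 1 base before the RefSeq start of transcription, except that of Batf, which stops at 199 bases because GENCODE M21 places the start of Batf further upstream. Capitals mark TGACG, the core of a cyclic AMP response element, CCAAT, and TATAAA.
Jun, chr4:95052223-95052472, minus strand: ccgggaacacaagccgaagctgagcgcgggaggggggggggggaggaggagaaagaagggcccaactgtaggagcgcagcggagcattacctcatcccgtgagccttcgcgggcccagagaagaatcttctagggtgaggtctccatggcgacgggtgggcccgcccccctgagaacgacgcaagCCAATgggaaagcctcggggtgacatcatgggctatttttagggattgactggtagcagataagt
Junb, chr8:84978749-84978998, minus strand: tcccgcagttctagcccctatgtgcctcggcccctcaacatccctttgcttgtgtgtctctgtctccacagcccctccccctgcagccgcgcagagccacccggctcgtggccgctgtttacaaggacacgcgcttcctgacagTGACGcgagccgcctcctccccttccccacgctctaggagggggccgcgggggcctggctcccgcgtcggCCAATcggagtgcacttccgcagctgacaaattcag
Fos, chr12:85473640-85473889, plus strand: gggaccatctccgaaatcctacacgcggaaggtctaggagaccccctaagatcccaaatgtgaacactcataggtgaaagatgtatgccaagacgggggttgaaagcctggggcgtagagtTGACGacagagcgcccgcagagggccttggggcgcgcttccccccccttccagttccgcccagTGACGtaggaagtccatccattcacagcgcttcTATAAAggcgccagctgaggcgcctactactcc
Batf, chr12:85686470-85686668, plus strand: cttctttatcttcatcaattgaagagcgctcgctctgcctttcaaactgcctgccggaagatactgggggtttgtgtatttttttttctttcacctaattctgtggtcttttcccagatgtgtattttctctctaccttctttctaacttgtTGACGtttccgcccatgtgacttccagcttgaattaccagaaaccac

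Promoter windows of chromosome 18, where Egr1 lies, were left out of the search. The windows that remained held 8 of the 10 genes, not Egr1 or Egr3, with 1 window each except for 5 of Egr2. In each, the 250 bases before the start were searched on both strands for 7 motifs. TGACG stood in the windows of Fos, Fosb, Junb and Batf and in 3 of the 5 of Egr2, against 17.8% of the 32851 windows searched. Fos held it 2 times, as did each of those 3 windows of Egr2. The 5 windows of Egr2 belong to 1 gene and may hold the same sites. TATAAA stood 33 bases before the start of Fos alone among these windows, against 12.4% of all windows, and CCAAT in those of Jun and Junb and in 3 of Egr2, against 33.8%. The EGR site GCGNGGGCG was found for Fosb and Fosl2 (4.70% of all windows), and the CArG box, the binding site of SRF, in 4 of the 5 windows of Egr2 (1.47%). Neither the AP-1 site TGANTCA (6.75% of all windows) nor the full response element TGACGTCA (1.55%), in which TGACG overlaps, was found in any of them. These matches describe letters in a short window and no binding, and sites with other letters or further upstream were not sought. The windows behind the percentages were not matched in GC content to those of the members, so setting matches beside them cannot show enrichment. The window of Jund held none of the 7 motifs, so none was shared by the 3 genes with the highest levels.

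The JUN family held the most abundant members. Jund, which encodes a JUN protein that many resting cells make without a stimulus, was at 415 FPKM in the library labelled Lig4-/- and 799 FPKM in CH12F3, the highest of the 10 in both. By level it ranked 299th of all genes in the library labelled Lig4-/- and 198th in CH12F3. Its log2 ratio of -0.94 was the lowest of the 10 as deposited and stopped short of 2-fold, with 4.90% of expressed genes below it. After the GC adjustment described below, 25.9% of expressed genes lay below Jund, which was then not the lowest member. Junb, an inducible JUN protein that is a weaker activator than JUN on many sites, was at 305 FPKM in the library labelled Lig4-/- and 453 FPKM in CH12F3 (log2 ratio -0.57). Jun, the founding member, stood far below its relatives at 9.23 FPKM in the library labelled Lig4-/- and 10.3 FPKM in CH12F3 (log2 ratio -0.14). All 3 JUN genes were thus lower in the library labelled Lig4-/- as deposited and under each rescaling run, although Jun lay above 0 after the GC adjustment described below. The log2 ratio was lowest for the most abundant of them. Within the family, Jund made up 56.9% of the summed FPKM in the library labelled Lig4-/- and 63.3% in CH12F3. Junb made up 41.8% in the library labelled Lig4-/- and 35.9% in CH12F3, and Jun 1.26% in the library labelled Lig4-/- and 0.813% in CH12F3.

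The longest annotated transcripts of Jun, Junb and Jund have 1 exon, and each gene overlaps another on the opposite strand in GENCODE M21. Junb (ENSMUSG00000052837, chromosome 8, 84974484 to 84978718) shares 173 exonic bases, 7.52% of its own, with Prdx2, a peroxiredoxin gene at 204 FPKM in the library labelled Lig4-/- and 287 FPKM in CH12F3. If strand was not used in counting, which the sources do not say, reads in these bases could belong to either gene. Jund (ENSMUSG00000071076, chromosome 8, 70698949 to 70700616) shares 877 bases, 52.6% of its exon, with the antisense gene Gm11175, which was at 0.45 FPKM in the library labelled Lig4-/- and 0.53 FPKM in CH12F3. Jun (ENSMUSG00000052684, chromosome 4, 95049034 to 95052222) shares 232 bases with Junos, at 0.78 FPKM in the library labelled Lig4-/- and 0.43 FPKM in CH12F3.

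Batf had the log2 ratio closest to 0 of the expressed members as deposited. This gene, whose product can pair with JUN proteins in place of FOS, was at 289 FPKM in the library labelled Lig4-/- and 311 FPKM in CH12F3 (log2 ratio -0.11). It ranked 421st of all genes in the library labelled Lig4-/- and 439th in CH12F3. The summed JUN family was 2.52 times the level of Batf in the library labelled Lig4-/- and 4.05 times in CH12F3. Jund was 1.44 times the level of Batf in the library labelled Lig4-/- and 2.56 times in CH12F3, and Junb 1.06 times in the library labelled Lig4-/- and 1.46 times in CH12F3. These proportions are taken within a library and so do not move when a whole library is rescaled, but they were not adjusted for GC content.

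**Figure D1:**
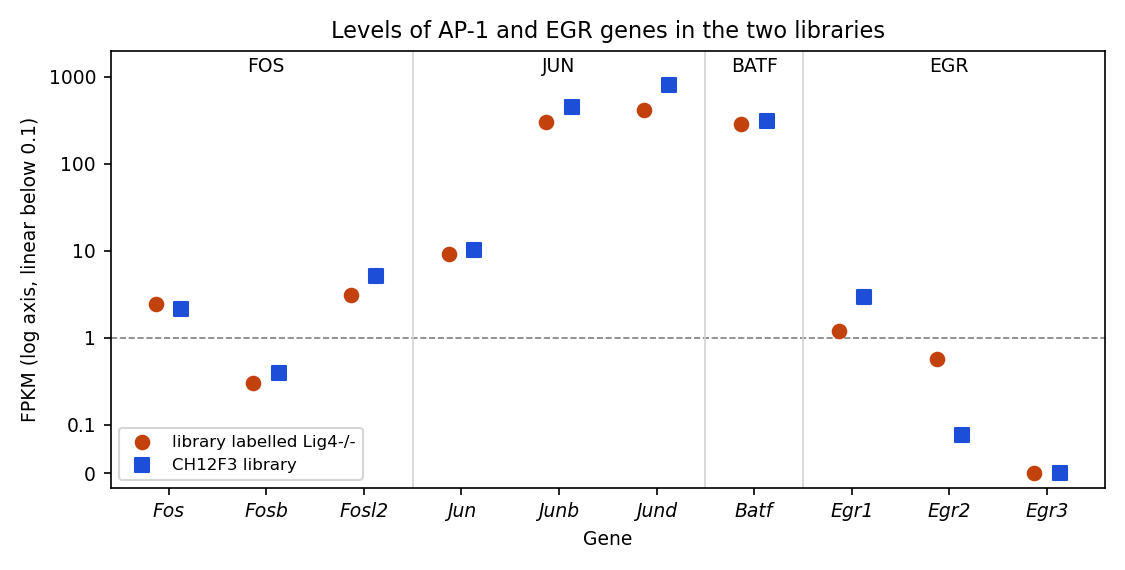
FPKM of each gene (vertical axis, logarithmic above 0.1 FPKM and linear below it), with the library labelled Lig4-/- as circles and the CH12F3 library as squares. Jund, Junb and Batf stand highest in both libraries, with Batf in the library labelled Lig4-/- the lowest of these points at 289 FPKM and Jund in CH12F3 the highest at 799 FPKM, Jun is near 10, and the FOS and EGR genes are at 5.21 FPKM or less; the dashed line marks 1 FPKM.

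The FOS family was low by comparison. Fosl2, which encodes FRA-2, was at 3.10 FPKM in the library labelled Lig4-/- and 5.21 FPKM in CH12F3 (log2 ratio -0.60). Fos was at 2.47 FPKM in the library labelled Lig4-/- and 2.16 FPKM in CH12F3 (log2 ratio 0.14), and was the 1 expressed member above 0, though at -0.04 with the median of all expressed genes set to 0. Fosb was at 0.30 FPKM in the library labelled Lig4-/- and 0.40 FPKM in CH12F3 (log2 ratio -0.11). Fosl2 was thus 1.26 times the level of Fos in the library labelled Lig4-/- and 2.41 times in CH12F3. The 3 FOS genes summed to 5.87 FPKM in the library labelled Lig4-/- and 7.77 FPKM in CH12F3, so the JUN family sum was 124 times theirs in the library labelled Lig4-/- and 162 times in CH12F3, and Batf alone 49.3 times in the library labelled Lig4-/- and 40.1 times in CH12F3.

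The 7 AP-1 genes summed to 1025 FPKM in the library labelled Lig4-/- and 1582 FPKM in CH12F3. The JUN family made up 71.2% of this sum in the library labelled Lig4-/- and 79.8% in CH12F3. Batf made up 28.2% in the library labelled Lig4-/- and 19.7% in CH12F3, and the FOS family 0.573% in the library labelled Lig4-/- and 0.491% in CH12F3. Batf thus took a larger part, and the JUN family a smaller one, in the library labelled Lig4-/- as deposited. Shares were not adjusted for the GC content of transcripts, which log2 ratios followed as described below. The share of Junb was close in both, at 29.8% in the library labelled Lig4-/- and 28.7% in CH12F3, while that of Jund was 40.5% in the library labelled Lig4-/- and 50.5% in CH12F3. With the other AP-1 genes described below added to the sum, the JUN family made up 58.6% in the library labelled Lig4-/- and 68.4% in CH12F3, and Batf 23.2% in the library labelled Lig4-/- and 16.9% in CH12F3.

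**Figure D2:**
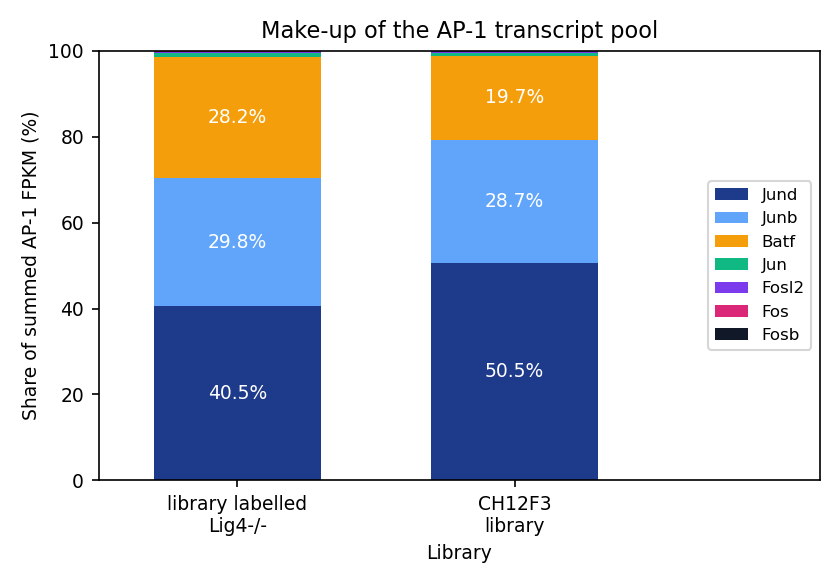
Stacked bars of the share (%) of the summed FPKM of the 7 AP-1 genes held by each gene, with the library labelled Lig4-/- at left and the CH12F3 library at right. Jund, Junb and Batf fill nearly the whole bar; the Batf part is 28.2% in the library labelled Lig4-/- and 19.7% in CH12F3, and Jun and the FOS genes form the thin band at the top.

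The EGR genes were low, with Egr2 and Egr3 at or near the floor of the table. Egr1, the EGR gene most readily induced by receptor signals, was at 1.19 FPKM in the library labelled Lig4-/- and 2.96 FPKM in CH12F3 (log2 ratio -0.85), with 6.25% of expressed genes below it. After the GC adjustment described below, 19.5% of expressed genes lay below Egr1. Without the added 1 FPKM, the value of Egr1 in the library labelled Lig4-/- was 0.402 times that in CH12F3, and with 0.1 FPKM added the log2 ratio was -1.25, so whether it counts as 2-fold apart depends on the pseudocount. Egr2, which with Egr3 restrains lymphocyte activation, went the other way at 0.58 FPKM in the library labelled Lig4-/- and 0.08 FPKM in CH12F3. Its log2 ratio was 0.55 with 1 FPKM added and 1.92 with 0.1 FPKM added, and both values are too low to weigh without a known depth. Egr3 was listed at 0 in both libraries. The EGR genes summed to 1.77 FPKM in the library labelled Lig4-/- and 3.04 FPKM in CH12F3, that is 0.172% of the summed FPKM of the 10 genes in the library labelled Lig4-/- and 0.192% in CH12F3. The cofactor genes were present: Nab2 was at 6.48 FPKM in the library labelled Lig4-/- and 8.73 FPKM in CH12F3, and Nab1 at 3.01 FPKM in the library labelled Lig4-/- and 1.90 FPKM in CH12F3. Both thus exceeded Egr1 in the library labelled Lig4-/-, and Nab2 alone did so in CH12F3. Egr4 was listed at 0 in both, and Wt1, a zinc finger gene whose product binds like sites, at 0 in the library labelled Lig4-/- and 0.02 FPKM in CH12F3.

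In order of level, the library labelled Lig4-/- ran Jund, Junb, Batf, Jun, Fosl2, Fos, Egr1, Egr2, Fosb and Egr3. The CH12F3 library had the same first 5 genes in the same order, followed by Egr1, Fos, Fosb, Egr2 and Egr3. With 1 library each, it cannot be said which neighbours in these orders differ beyond their spread.

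None of the 7 expressed members was at least 2-fold apart in either direction, while 25.1% of all expressed genes were past that limit, 21.0% above it and 4.09% below it in the library labelled Lig4-/-. With the median of all expressed genes, 0.17, set to 0, these shares were 16.4% higher and 6.79% lower, and 2 members, Jund at -1.11 and Egr1 at -1.03, were past 2-fold on the lower side. The median log2 ratio of the 7 was -0.57, with 6 of them below 0. Log2 ratios in these libraries followed the GC content of the transcript, with a Spearman's rho of -0.64 across 11404 expressed genes, which are not independent replicates. The expressed members are all GC-rich, at 51.9% for Fos to 67.1% for Jund, and lay in deciles 7 to 10 of GC content. Among the 4562 expressed genes of those deciles, 2.61% were past 2-fold on the higher side and 7.32% on the lower, with a median log2 ratio of -0.28. The count of members past 2-fold is therefore to be read against these shares as well as against the 25.1% of all genes.

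After a smooth curve of log2 ratio on GC content was subtracted, the median of the 7 was -0.12, with 3 above 0 and 4 below, and no member was 2-fold apart, against 11.7% of expressed genes, 5.75% on the higher side and 5.98% on the lower. Jund was then at -0.39 and Junb at -0.12, while Jun (0.13), Batf (0.21) and Fos (0.18) lay above 0. Egr1 (-0.52) and Fosl2 (-0.47) were the lowest. The adjustment thus turned the sign of Jun and Batf and left those of the other 5. The gap between the log2 ratios of Batf and Jund, 0.84 before the adjustment, was 0.60 after it, and the gap between Fos and Egr1, 0.99 before, was 0.70 after.

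**Figure D3:**
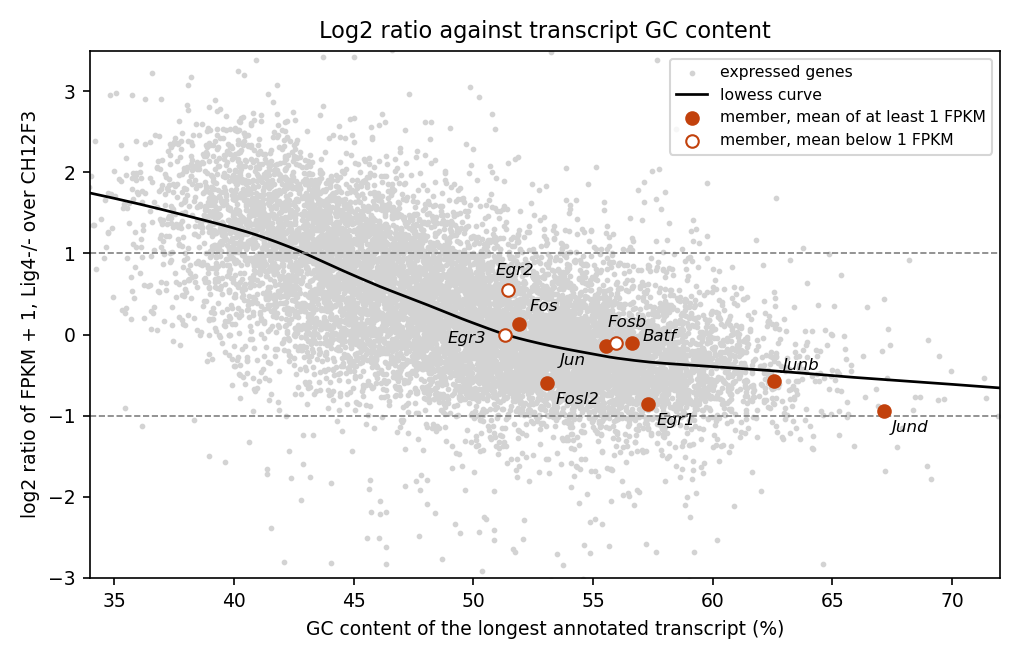
Log2 ratio of FPKM + 1, library labelled Lig4-/- over CH12F3 (vertical axis), against the GC content of the longest annotated transcript (horizontal axis, %) for expressed genes (grey), with the lowess curve in black, the 10 genes in orange and 2-fold limits dashed; a few grey points lie beyond the axes. Jund, at 67.1% GC, lies at -0.94 where the curve is already at -0.55, and no member lies outside the dashed lines.

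Fos and Batf stand in a small cluster of AP-1 genes. Fos (ENSMUSG00000021250) occupies positions 85473890 to 85477273 and Batf (ENSMUSG00000034266) positions 85686669 to 85709087 of chromosome 12 on GRCm38, both on the plus strand. Jdp2, a bZIP repressor that pairs with JUN proteins, is the 1 protein-coding gene that lies wholly between them, at 85599027 to 85639878. It was at 32.3 FPKM in the library labelled Lig4-/- and 38.1 FPKM in CH12F3 (log2 ratio -0.23, 0.09 after GC adjustment). Jdp2 was 13.1 times the level of Fos in the library labelled Lig4-/- and 17.7 times in CH12F3. Levels therefore climbed along the locus from Fos through Jdp2 to Batf in both libraries, and none of the 3 was 2-fold apart between the libraries.

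Other genes of the families and of the pathways around them were taken from 8 lists of 110 genes, of which 93 were expressed. Relative to CH12F3, 18 of these genes were past 2-fold on the higher side and 2 on the lower in the library labelled Lig4-/-, beside 21.0% and 4.09% of all expressed genes, and the median log2 ratio was 0.35. After GC adjustment the numbers were 5 and 3, beside 5.75% and 5.98% of all expressed genes, and the median was 0.15. The counts on the higher side were thus near the shares of all expressed genes. Counts for single lists below are to be read against the same shares and against the GC content of each list. Past 2-fold on the higher side were 68.4% of expressed genes in the decile of lowest GC content and 1.93% in that of highest. The expressed genes of the table as a whole had a median of 0.17, and -0.01 after adjustment.

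Among 13 other AP-1 bZIP genes, 9 were expressed, with 2 past 2-fold on the higher side and none on the lower (median log2 ratio -0.10, adjusted 0.24). Batf3, the closest relative of Batf here, was at 76.5 FPKM in the library labelled Lig4-/- and 128 FPKM in CH12F3 (log2 ratio -0.73, adjusted -0.32), so Batf was 3.78 times its level in the library labelled Lig4-/- and 2.43 times in CH12F3. Maff, a small MAF gene, was at 46.0 FPKM in the library labelled Lig4-/- and 49.5 FPKM in CH12F3. The 2 genes past 2-fold have transcripts of 40.5% and 45.2% GC. Atf2, which pairs with JUN and is a target of JNK and p38, was at 10.4 FPKM in the library labelled Lig4-/- and 2.61 FPKM in CH12F3 (log2 ratio 1.66, adjusted 0.40), and Atf1, a CREB relative, at 15.2 FPKM in the library labelled Lig4-/- and 4.55 FPKM in CH12F3 (1.55, adjusted 0.84). Atf3, a stress-induced partner of JUN, was at 0.52 FPKM in the library labelled Lig4-/- and 1.99 FPKM in CH12F3. Its log2 ratio of -0.98 lay just short of 2-fold with 1 FPKM added, and it passed 2-fold on the lower side, the 1 gene of the list to do so, with 0.1 FPKM added and also with the median of all expressed genes set to 0. Atf7 (8.07 FPKM in the library labelled Lig4-/- and 12.6 FPKM in CH12F3) was the 1 gene of the list past 2-fold after adjustment, at -1.04. Atf3 and Atf7 are examples chosen after their values were seen.

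Of 26 other immediate early genes, 20 were expressed, with 2 higher by 2-fold or more and none lower (median 0.31, adjusted 0.24 with 1 higher). The NF-kB inhibitor Nfkbia was at 386 FPKM in the library labelled Lig4-/- and 383 FPKM in CH12F3, and the survival gene Mcl1 at 241 FPKM in the library labelled Lig4-/- and 195 FPKM in CH12F3. Both were far more abundant than Egr1 and Fos in the same libraries. Cd69, an early activation antigen, was at 174 FPKM in the library labelled Lig4-/- and 43.8 FPKM in CH12F3 (log2 ratio 1.96, adjusted 0.34), and Tnfaip3, the feedback inhibitor A20, at 41.6 FPKM in the library labelled Lig4-/- and 18.9 FPKM in CH12F3 (1.10, adjusted 0.62). Ier2 was the 1 gene past 2-fold after adjustment, at 59.1 FPKM in the library labelled Lig4-/- and 38.9 FPKM in CH12F3 (log2 ratio 0.59, adjusted 1.0). It is named after its value was seen.

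The 19 genes of the RAS-ERK pathway and its SRF and ternary complex factors were all expressed, with 4 past 2-fold above CH12F3, none below and a median of 0.35 (adjusted -0.06 with none past 2-fold). Among these were the ERK-activated kinase gene Rps6ka3, at 9.57 FPKM in the library labelled Lig4-/- and 2.09 FPKM in CH12F3 (log2 ratio 1.77, adjusted 0.51), Creb1, at 12.4 FPKM in the library labelled Lig4-/- and 4.51 FPKM in CH12F3 (1.29, adjusted -0.06), and the ternary complex factor Elk4, at 7.89 FPKM in the library labelled Lig4-/- and 3.12 FPKM in CH12F3 (1.11, adjusted 0.79). The most abundant genes lay on the other side, with Hras at 84.2 FPKM in the library labelled Lig4-/- and 162 FPKM in CH12F3 (log2 ratio -0.93, adjusted -0.68) and the MEK gene Map2k2 at 90.2 FPKM in the library labelled Lig4-/- and 159 FPKM in CH12F3 (-0.81, adjusted -0.41). Transcripts of Rps6ka3, Creb1 and Elk4 have 39.6% to 48.5% GC, against 55.2% for Hras and 60.4% for Map2k2.

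In the JNK and p38 pathway 12 of 14 genes were expressed, 3 exceeded CH12F3 by 2-fold or more and none lay below by as much (median 0.47, adjusted 0.26 with 2 higher). Map3k1, an upstream kinase of JNK, was at 10.5 FPKM in the library labelled Lig4-/- and 2.63 FPKM in CH12F3 (log2 ratio 1.67, adjusted 1.45), and Map3k7, which encodes TAK1, at 15.4 FPKM in the library labelled Lig4-/- and 3.98 FPKM in CH12F3 (1.72, adjusted 1.01). These were the 2 that stayed past 2-fold after adjustment. Mapk8, which encodes JNK1, was at 80.9 FPKM in the library labelled Lig4-/- and 24.1 FPKM in CH12F3 (1.70, adjusted 0.40), and the p38 activator gene Map2k3 at 42.1 FPKM in the library labelled Lig4-/- and 32.7 FPKM in CH12F3 (0.35, adjusted 0.56). The RNA of Jun, whose product is the substrate for which JNK is named, was within 2-fold. Kinase activity and protein were not measured.

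Of 7 partner genes, 6 were expressed, 2 of them past 2-fold on the higher side and none on the lower (median 0.35, adjusted 0.54 with none past 2-fold). Irf4, which binds with BATF, was at 58.1 FPKM in the library labelled Lig4-/- and 56.5 FPKM in CH12F3, and Nfatc1, whose product binds next to AP-1, at 60.1 FPKM in the library labelled Lig4-/- and 44.5 FPKM in CH12F3 (log2 ratios 0.04 and 0.43). Irf4 and Batf thus both lay within 2-fold. Nfatc3 (18.8 FPKM in the library labelled Lig4-/- and 7.80 FPKM in CH12F3, log2 ratio 1.17, adjusted 0.56) and Bach1, which competes at related sites (7.16 FPKM in the library labelled Lig4-/- and 2.90 FPKM in CH12F3, log2 ratio 1.07, adjusted 0.55), were the 2 past 2-fold.

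All 11 genes for AU-rich element binding and for AP-1 protein degradation were expressed, with 4 past 2-fold on the higher side, none on the lower and a median of 0.74 (adjusted 0.25 with 2 higher). Their median GC content was 46.6%. In the decile of expressed genes with a median of 47.0% GC, 23.0% were past 2-fold on the higher side, and the median log2 ratio was 0.50. Itch, a ubiquitin ligase for JUN and JUNB, was at 15.6 FPKM in the library labelled Lig4-/- and 3.31 FPKM in CH12F3 (log2 ratio 1.94, adjusted 0.84), and Cop1, a ligase for JUN, at 31.4 FPKM in the library labelled Lig4-/- and 11.3 FPKM in CH12F3 (1.39, adjusted -0.18). Elavl1, which encodes the mRNA-stabilising protein HuR, was at 58.1 FPKM in the library labelled Lig4-/- and 24.0 FPKM in CH12F3 (1.24, adjusted 0.60). Zfp36l2, which promotes decay of AU-rich mRNAs, was at 16.4 FPKM in the library labelled Lig4-/- and 6.81 FPKM in CH12F3 (1.16, adjusted 1.39). Khsrp, named after its value was seen, was at 53.7 FPKM in the library labelled Lig4-/- and 29.4 FPKM in CH12F3, and it joined Zfp36l2 past 2-fold after adjustment (0.84, adjusted 1.18). The most abundant of the list, Hnrnpd (122 FPKM in the library labelled Lig4-/- and 86.5 FPKM in CH12F3) and Gsk3a (77.4 FPKM in the library labelled Lig4-/- and 90.8 FPKM in CH12F3), were within 2-fold.

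Among 16 reported target genes of AP-1 or EGR proteins, 14 were expressed, 1 was past 2-fold on the higher side and 2 on the lower (median 0.08, adjusted -0.30 with none higher and 2 lower). Il10 was at 668 FPKM in the library labelled Lig4-/- and 485 FPKM in CH12F3, and the chemokine gene Ccl3 at 600 FPKM in the library labelled Lig4-/- and 359 FPKM in CH12F3 (log2 ratios 0.46 and 0.74). Id2, an inhibitor of helix-loop-helix factors, was at 62.7 FPKM in the library labelled Lig4-/- and 25.5 FPKM in CH12F3 (log2 ratio 1.26, adjusted 0.55). Tgfb1 was lower, at 88.4 FPKM in the library labelled Lig4-/- and 190 FPKM in CH12F3 (-1.09, adjusted -1.0), as was the protease gene Mmp9, at 3.26 FPKM in the library labelled Lig4-/- and 8.05 FPKM in CH12F3 (-1.09, adjusted -0.83). Vim, named after its value was seen, was at 134 FPKM in the library labelled Lig4-/- and 239 FPKM in CH12F3 and had the lowest adjusted value of the list, -1.37.

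**Figure D4:**
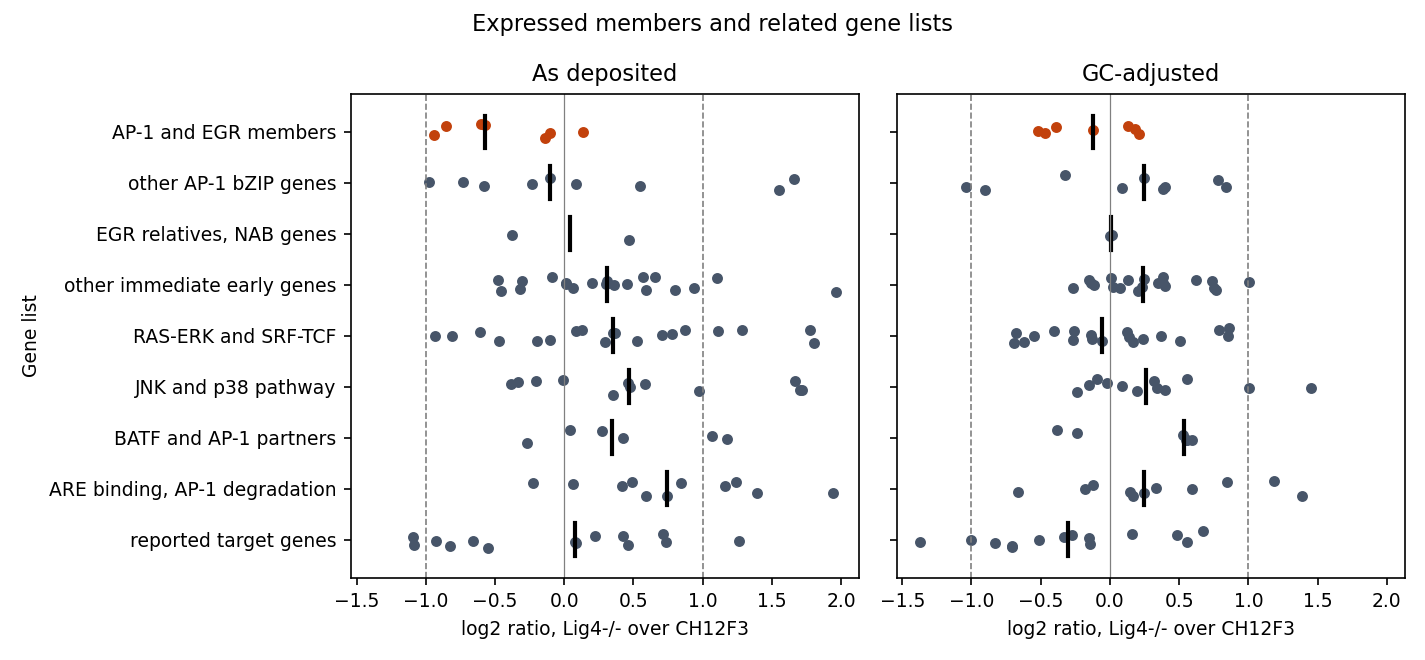
Log2 ratios, library labelled Lig4-/- over CH12F3 (horizontal axes), of the 7 expressed members (orange, top row) and of the expressed genes of 8 related lists (grey, 1 point per gene), as deposited at left and GC-adjusted at right; black bars are medians and dashed lines 2-fold. The members' median is -0.57 at left and -0.12 at right, and in the lists most points past 2-fold at left move inside the limits at right.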

How the data were processed

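Per the labels' protocols, Trizol was used for extraction, and 5 µg of total RNA entered the Illumina TruSeq sample preparation. The authors deposited FPKM per gene, with 2 decimals, for 53873 features in 2 columns, each matched to its sample by name. CASAVA, TopHat and the build GRCh38, a human build, are named in the submitters' processing notes, although 51912 features carry mouse Ensembl identifiers. The sources used here give neither the program behind the FPKM values nor the annotation or strand setting.

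Symbols, positions, transcript lengths and GC contents came from GENCODE M21 (mouse GRCm38), where 51633 identifiers had a symbol. Of identifiers with 1 symbol, that with the highest mean was kept, which left 51840 genes. Mkl1 and Mkl2 were matched as Mrtfa and Mrtfb. Values were used as deposited. GC adjustment subtracted a lowess curve (fraction 0.3, statsmodels 0.14.6) fitted over expressed genes. These steps were tested on simulated data with a straight GC trend, without low genes. The curve found here is not straight and some members are low, so that check gives no error for their adjusted values. Whole reads were sought in low values of 1-exon pseudogenes and provisional transcripts. At the best of 400 steps, 31.3% of values in the library labelled Lig4-/- and 31.5% in the CH12F3 library lay within 0.1 of a whole multiple, against 20% by chance for a step fixed in advance, so depth was taken as unknown. Members and lists were chosen with earlier results of these data known. Named are the members, Lig4, up to 4 genes past 2-fold on each side and the 2 most abundant genes of each list, and others where stated. Some genes that this rule or the lists take in are not reported here by name. Alternatives were other pseudocounts, scalings, filters and thresholds and 2 GC curves.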

Additional observations from a re-analysis of the deposited data

How the results depend on the processing

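With 1 library per line, nothing could be left out in turn, and no paired analysis was possible because the result comes from no test. No expressed member was past 2-fold on the higher side under any alternative run, while Egr2, which is under the filter, was past 2-fold at a pseudocount of 0.1 FPKM alone. Past the threshold on the lower side were none of the expressed members as reported, 1 (Egr1) with a pseudocount of 0.1 FPKM, where 5.49% of all expressed genes were, 2 (Jund and Egr1) with the median of expressed genes set to 0 (6.79%), and 3 (Jund, Egr1 and Fosl2) at a 1.5-fold threshold (14.3%). The members' median log2 ratio lay between -0.74 and -0.12 in every setting for which it was taken, which leaves out the second, wider GC curve. For the 8 lists, 18 genes higher and 2 lower became 11 and 1 with a pseudocount of 5 FPKM, 14 and 5 with the median set to 0, and 5 and 3 after GC adjustment. Without Jund, the Batf share of AP-1 FPKM was 47.5% in the library labelled Lig4-/- and 39.8% in the CH12F3 library, and the EGR share was 0.290% in the library labelled Lig4-/- and 0.387% in the CH12F3 library. The signs of Jun, Batf and Fosb turned with GC adjustment and that of Fos, to -0.04, with the median set to 0. With the second GC curve (lowess fraction 0.6) the signs were those of the first. Jund was then at -0.29, against -0.39 with the first curve, and Junb at -0.06, against -0.12. Unknown depth limits the FOS and EGR genes most.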
